A study of Homo sapiens with 6 samples.

Results

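The 10 genes described here encode 3 chromatin assemblies that share partners with ENL: DOT1L with its cofactors MLLT10 and MLLT6, the PAF1 complex (PAF1, CTR9, LEO1, CDC73 and RTF1), and the MLL1 methyltransferase KMT2A with menin (MEN1). They were taken from the deposited expression table by exact gene symbol, and all 10 were found, each once, among 31628 genes. HCT116 is a human colon cancer line, and these cells carry ENL fused to an auxin-inducible degron (AID) and stably express AtAFB2, a plant F-box protein through which auxin sends the tagged protein for degradation. There were 2 libraries in each group. Washout cells received the auxin indole-3-acetic acid (IAA, 500 um as the labels write it) for 3 h, were washed with PBS and grew on for 48 h without it. IAA cells received 500 um for 3 h and were then harvested. Control cells received no IAA. All groups carried the tag and AtAFB2, and the labels describe drug selection of AID clones without saying how many clones were used. No library of IAA-treated cells without the degron was analysed here, so an effect of IAA itself and an effect of ENL loss cannot be told apart.

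ENL, the product of MLLT1, binds acetylated histone H3 through its YEATS domain and recruits elongation machinery. DOT1L methylates lysine 79 of histone H3 on transcribed genes, and MLLT10 (AF10) and MLLT6 (AF17) are related PHD-finger proteins, of which AF10 is needed for the higher methylation states. The PAF1 complex travels with RNA polymerase II and is required for ubiquitylation of histone H2B, a mark that in turn stimulates DOT1L and the MLL family. KMT2A methylates lysine 4 of histone H3 and is held at many of its targets by menin. In acute leukemia, KMT2A, MLLT10, MLLT6 and ENL are all known as partners in oncogenic gene fusions.

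DOT1L and MLLT10 were lower after IAA and higher again after washout, whereas the other 8 genes passed no test in any comparison. Of all tested genes 24.5% changed with IAA (10.7% lower) and 25.5% after washout against IAA (11.9% higher). After washout against control 0.257% changed. The share of the 10 that changed with IAA is thus near that of all genes. The promoter of MLLT10 is shown beside that of its paralogue MLLT6, because MLLT10 passed the test with IAA and MLLT6 did not. RefSeq (GRCh38.p14) gives 2 start regions for MLLT10, on the plus strand of chromosome 10, and 1 for MLLT6, on the plus strand of chromosome 17. Each holds 250 bases before and 50 after the annotated start. Capitals mark matches to the GC box, GGGCGG on either strand, the core letters bound by Sp-family factors.
MLLT10, chr10:21533506-21533805: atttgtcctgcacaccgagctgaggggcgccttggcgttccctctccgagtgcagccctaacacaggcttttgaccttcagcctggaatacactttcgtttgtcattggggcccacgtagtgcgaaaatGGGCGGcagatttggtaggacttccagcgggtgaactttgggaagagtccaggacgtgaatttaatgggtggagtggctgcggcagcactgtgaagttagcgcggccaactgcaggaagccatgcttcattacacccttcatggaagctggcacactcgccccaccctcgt
MLLT10, chr10:21533982-21534281: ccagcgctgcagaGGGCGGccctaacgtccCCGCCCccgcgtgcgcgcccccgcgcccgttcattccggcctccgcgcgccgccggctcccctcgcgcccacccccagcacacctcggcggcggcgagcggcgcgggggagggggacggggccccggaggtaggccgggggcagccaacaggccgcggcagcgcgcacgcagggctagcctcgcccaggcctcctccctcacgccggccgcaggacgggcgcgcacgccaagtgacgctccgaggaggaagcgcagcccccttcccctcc
MLLT6, chr17:38705023-38705322: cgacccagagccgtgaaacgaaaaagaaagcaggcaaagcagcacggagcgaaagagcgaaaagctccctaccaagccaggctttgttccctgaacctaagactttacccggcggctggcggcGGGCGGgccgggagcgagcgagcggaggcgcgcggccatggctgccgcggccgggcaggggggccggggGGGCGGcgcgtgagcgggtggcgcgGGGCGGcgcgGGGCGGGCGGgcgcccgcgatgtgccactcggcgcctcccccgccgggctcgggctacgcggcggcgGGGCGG
The GC box was found 1 and 2 times in the MLLT10 regions and 6 times in that of MLLT6, where 2 matches overlap. It occurs in 45% of 35116 RefSeq promoter regions of the same length and in all 8 members that had an entry. DOT1L and CDC73 had none. A member counts where any of its regions matches, whereas the shares of all are of single regions. The second MLLT10 region and the MLLT6 region hold 45 and 46 CpG dinucleotides, and the first MLLT10 region holds 15, against a median of 14 over all promoter regions. The letters CACGTG of the E-box, found in 7.26% of all promoter regions, were in those of 0 of the 8 members, and CCAAT, found on either strand in 34.6% of all, was in those of 3. The letters GCGTG, the core of the site of the aryl hydrocarbon receptor, were on either strand in those of 5 of the 8, against 36.5% of all promoter regions, with 4 matches in the second MLLT10 region and 1 in that of MLLT6. These matches describe letters only. No binding or chromatin was measured here.

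The targeted gene was examined first. MLLT1 had 0.413 and 0.384 FPKM after washout, 0.404 and 0.358 FPKM with IAA, and 0.412 and 0.427 FPKM in control. FPKM here divide by a length that matches the whole gene span with introns, so they rank genes of different intron content poorly, and the reads behind them were computed from the steps between values. For MLLT1 these were 463 and 428 after washout, 445 and 402 with IAA, and 459 and 480 in control. Its log2 change with IAA was -0.14 (SE 0.098, limma adjusted p = 0.332). ENL protein, on which the degron acts, was not measured.

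Across the libraries, totals lay between 16442840 and 16770850 reads, and 14014 genes had a mean of at least 20 reads and were tested. Changes were tested with limma on log2(FPKM + 0.01), and changed means an adjusted p (Benjamini-Hochberg over all 14014 genes, two-sided) under 0.05. Errors beside log2 changes are SE, and errors beside FPKM are SD with n = 2. The labels do not say that replicates came from separate cultures, so p-values measure only the spread between these libraries. Of 8 markers of epithelium and colon, LGALS4 did not pass the read filter (mean of 0.167 reads) and 7 did, among them EPCAM and KRT8. Their summed FPKM ran from 324 to 340 after washout, from 268 to 272 with IAA and from 336 to 346 in control. The keratins KRT18 and KRT19 make up most of this sum. Unlike them, CDX2, an intestinal transcription factor, was higher in both IAA libraries than in any other, with 1.75 and 1.86 FPKM after washout, 2.24 and 2.34 FPKM with IAA, and 1.5 and 1.91 FPKM in control. VIL1 also had higher FPKM in both IAA libraries than in any other, and CDH1 overlapped between IAA and control. The part of these markers in the results was not tested. Of markers of other cell types, 1 of 6 for fibroblasts, 0 of 4 for endothelium and 0 of 6 for blood passed that filter, and the T cell marker CD3E was listed at 0 in every library. The summed FPKM of the fibroblast markers ran from 0.727 to 0.756 after washout, from 0.618 to 0.773 with IAA and from 0.523 to 0.545 in control. COL1A1, the fibroblast marker that passed, makes up most of this sum. Every library came from the HCT116 line, and in bulk RNA fewer cells expressing a gene and less RNA per cell cannot be told apart.

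**Figure D1:**
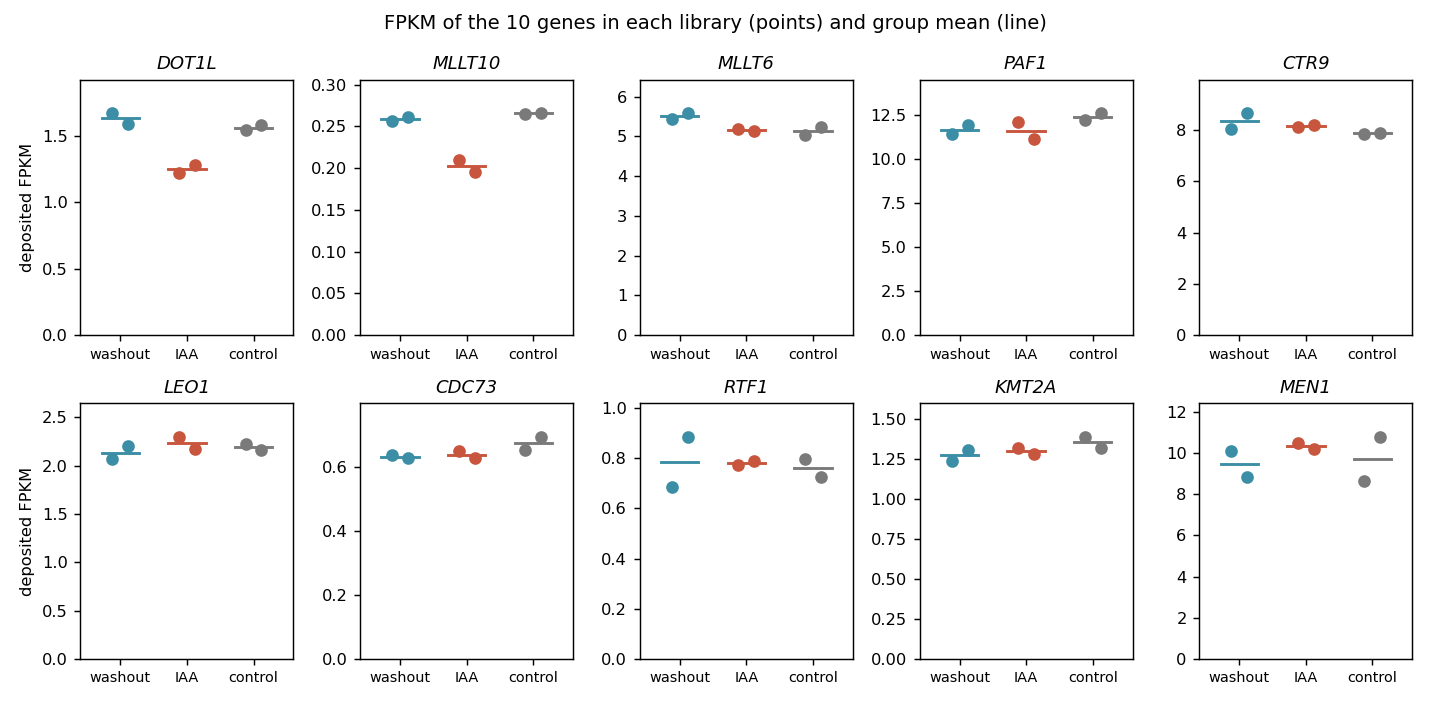
Deposited FPKM (y axis, from 0) of each of the 10 genes in the washout, IAA and control groups. Points are libraries and lines are means of 2. The DOT1L and MLLT10 points with IAA lie below all others of these genes.

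IAA against control asked which of these genes changed within 3 h of IAA. Of the 10, 2 fell, 0 rose and 8 did not pass, where 24.5% of all tested genes changed, 13.8% higher and 10.7% lower. The share of these that were higher was 56.5%, and 45.4% with FPKM rescaled to TPM, under which DOT1L and MLLT10 also fell. The median log2 change was -0.02 over the 10 and 0.04 over all tested genes. FPKM of the IAA and control libraries did not overlap for 5 of the 10, with IAA higher for 1 and lower for 4. They did not overlap for 60.5% of all tested genes, higher for 35.5% and lower for 25.1%.

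Within the DOT1L group, DOT1L itself, the only enzyme known to methylate this histone position, had 1.67 and 1.59 FPKM after washout, 1.22 and 1.28 FPKM with IAA, and 1.54 and 1.58 FPKM in control. Both IAA libraries lay below all the others. The values rest on 1377 and 1474 reads with IAA and 1752 and 1811 in control. DOT1L fell to 1.25 ± 0.0428 FPKM with IAA, against 1.56 ± 0.0265 FPKM in control (0.804 of control, log2 change -0.31, SE 0.056, limma adjusted p = 0.000244). It ranked 874 by p-value among the tested genes. By GENCODE 29, 11.5% of its exon bases are shared with PLEKHJ1 and an antisense gene on the opposite strand, and no source used here gives the strand that was counted. PLEKHJ1 itself did not pass (log2 change 0.14, limma adjusted p = 0.31).

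MLLT10, the cofactor that DOT1L needs for full activity, had 0.257 and 0.261 FPKM after washout, 0.21 and 0.195 FPKM with IAA, and 0.265 and 0.266 FPKM in control. Its IAA libraries also lay below all the others. The gene spans 219 kb, which lowers its FPKM, and they stand for 725 and 684 reads with IAA and 923 and 934 in control. By reads per exon length it was also low, at rank 9 of the 10 genes. MLLT10 fell to 0.203 ± 0.0112 FPKM with IAA, against 0.266 ± 0.000509 FPKM in control (0.763 of control, log2 change -0.38, SE 0.072, limma adjusted p = 0.000468). With a pseudocount of 1 in place of 0.01, which shrinks genes of low FPKM, it did not pass (log2 change -0.07, limma adjusted p = 0.0599).

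MLLT6, the paralogue of MLLT10, had 5.45 and 5.59 FPKM after washout, 5.18 and 5.15 FPKM with IAA, and 5.03 and 5.23 FPKM in control. The IAA values lay between those of the control libraries. Its log2 change was 0.01, with a 95% interval from -0.10 to 0.12 (limma adjusted p = 0.923), and the interval of MLLT10 ran from -0.53 to -0.23. The difference between these changes was not tested. For every read of MLLT6 there were 0.407 and 0.403 reads of MLLT10 after washout, 0.351 and 0.326 with IAA, and 0.455 and 0.439 in control. The ratio was lower in both IAA libraries than in any other. An exact permutation test of 2 libraries against 2 cannot give a p below 0.333, so none is given for this ratio. For every read of DOT1L there were 0.527 and 0.464 reads of MLLT10 with IAA and 0.527 and 0.516 in control, which overlap.

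None of the 5 PAF1 complex genes passed with IAA. PAF1, which gives the complex its name, had 11.4 and 11.9 FPKM after washout, 12.1 and 11.1 FPKM with IAA, and 12.2 and 12.6 FPKM in control. Both IAA libraries lay below both control libraries, and the log2 change of -0.09 had an interval from -0.23 to 0.05 (limma adjusted p = 0.351). CTR9, the scaffold subunit, had 8.06 and 8.67 FPKM after washout, 8.11 and 8.21 FPKM with IAA, and 7.87 and 7.91 FPKM in control. It had the most reads of the 10 genes, between 7522 and 8304, and its log2 change of 0.05 had an interval from -0.04 to 0.13 (limma adjusted p = 0.425). LEO1, a subunit that contacts the polymerase, had 2.07 and 2.2 FPKM after washout, 2.3 and 2.17 FPKM with IAA, and 2.22 and 2.16 FPKM in control. Its IAA and control libraries overlapped. CDC73 (parafibromin), a tumour suppressor of the parathyroid, had 0.638 and 0.627 FPKM after washout, 0.65 and 0.628 FPKM with IAA, and 0.655 and 0.695 FPKM in control. The IAA values lay just below control, and the log2 change was -0.08 (interval from -0.20 to 0.04, limma adjusted p = 0.376). RTF1, which carries the domain that stimulates H2B ubiquitylation, had 0.685 and 0.886 FPKM after washout, 0.772 and 0.789 FPKM with IAA, and 0.796 and 0.725 FPKM in control. Its washout replicates stood further apart (coefficient of variation 18.2%) than those of any other member in any group, and with IAA its log2 change was 0.04 (interval from -0.15 to 0.22). Over the 5 genes the intervals allow folds with IAA between 0.85 and 1.17.

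The MLL complex pair also did not pass. KMT2A had 1.24 and 1.31 FPKM after washout, 1.32 and 1.28 FPKM with IAA, and 1.39 and 1.32 FPKM in control, with a log2 change of -0.06 with IAA (interval from -0.17 to 0.06, limma adjusted p = 0.507). Of its exon bases 18.9% are shared with other annotated genes. MEN1, which encodes the menin tumour suppressor, had 10.1 and 8.85 FPKM after washout, 10.5 and 10.2 FPKM with IAA, and 8.63 and 10.8 FPKM in control. The control replicates of MEN1 differed from each other by more than either did from the IAA libraries' mean, and its log2 change was 0.10 (interval from -0.07 to 0.28, limma adjusted p = 0.412). Without control replicate 2 it was 0.27 (limma adjusted p = 0.0399), but the control group then holds 1 library, which is assumed to vary like those of the other groups.

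**Figure D2:**
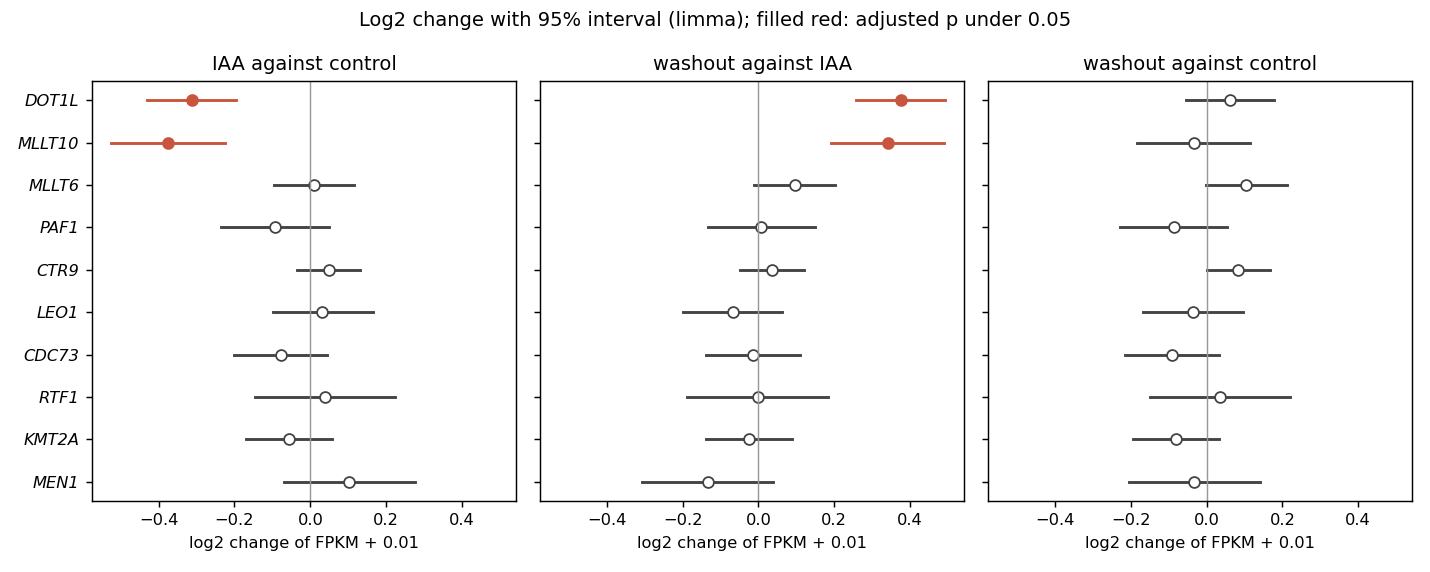
Log2 change of FPKM + 0.01 (x axis) with its 95% interval for the 10 genes in the 3 comparisons. DOT1L and MLLT10 lie at -0.31 and -0.38 for IAA against control and at 0.38 and 0.34 for washout against IAA, and the intervals of the other 8 genes include or touch 0.

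Washout against IAA asked whether the levels returned once IAA was removed. Washout cells also had a PBS wash and 48 h of further growth, and no untreated group with both is described here. In both washout comparisons the removal of IAA cannot be told apart from these. Of the 10 genes 2 rose, 0 fell and 8 did not pass, where 25.5% of all tested genes changed, 11.9% higher and 13.6% lower. The share of these that were higher was 46.7%, and 60.1% with FPKM rescaled to TPM. FPKM of the washout and IAA libraries did not overlap for 4 of the 10 (3 higher and 1 lower). They did not overlap for 61% of all tested genes (28% higher and 33% lower). DOT1L stood at 1.63 ± 0.0568 FPKM after washout, against 1.25 ± 0.0428 FPKM with IAA (1.3-fold, log2 change 0.38, SE 0.056, limma adjusted p = 3.01e-05). MLLT10 stood at 0.259 ± 0.00295 FPKM after washout, against 0.203 ± 0.0112 FPKM with IAA (1.28-fold, log2 change 0.34, SE 0.072, limma adjusted p = 0.00114), and with a pseudocount of 1 it did not pass (0.0714). This comparison and the one above share the IAA libraries, so a low value in these moves both. MLLT6 was 1.07-fold higher without passing (interval of the log2 change from -0.01 to 0.20, limma adjusted p = 0.189), and MEN1 was at 0.913 of the level with IAA without passing (limma adjusted p = 0.263). The 5 PAF1 complex genes described here lay between 0.954 and 1.03 of their levels with IAA. WDR61, which is counted here among the factors linked to the complex and is also a subunit of the human complex, fell to 0.873 of its level with IAA (limma adjusted p = 0.0279, and 0.0882 with FPKM rescaled to TPM).

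Washout against control asked what remained different after 48 h. None of the 10 genes passed by limma, where 36 of all tested genes did (0.257%, with 0.164% higher and 0.0928% lower). None of the 10 passed by voom on the reads, where 108 of all tested genes did, and 112 with median-of-ratios scaling. In the limma fit on FPKM, 1562 of all tested genes had an unadjusted p under 0.05. FPKM of the washout and control libraries did not overlap for 7 of the 10 (3 higher and 4 lower). They did not overlap for 41.2% of all tested genes (23.9% higher and 17.2% lower). DOT1L was at 1.04 of control (log2 change 0.06, interval from -0.06 to 0.18, limma adjusted p = 0.737) and MLLT10 at 0.976 (interval from -0.18 to 0.12, limma adjusted p = 0.909). The nearest to passing were CTR9, with a log2 change of 0.08 (interval from 0.00 to 0.17, limma adjusted p = 0.453), and MLLT6, with 0.11 (interval from -0.001 to 0.21, limma adjusted p = 0.46). Both stood above control in both washout libraries.

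To compare levels between genes, the reads were divided by the exon length in GENCODE 29 and by the library total (RPKM over exons), which assumes that the reads fall in exons. On this scale CTR9 was highest, from 75.1 to 82.8 RPKM over the 6 libraries. LEO1 (26.1 to 29), PAF1 (22.2 to 25.2) and MEN1 (15.8 to 19.8) followed without overlap. RTF1, MLLT6, DOT1L, CDC73 and MLLT10 formed a run between 5.87 and 11.5 in which each overlaps the next. KMT2A was lowest, at 3.57 to 4. With IAA, DOT1L and MLLT10 had 7.61 ± 0.26 and 6.11 ± 0.337 RPKM over exons, against 9.47 ± 0.161 and 8.01 ± 0.0153 in control.

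**Figure D3:**
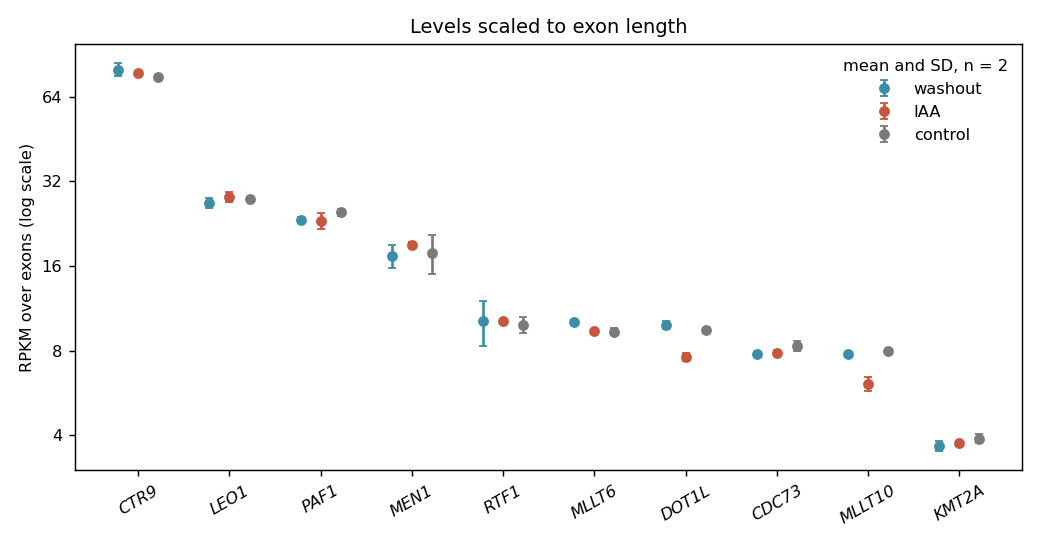
RPKM over exons (reads per exon kb and library total, log axis) for the 10 genes, ordered by mean, as mean and SD of 2 libraries in washout, IAA and control. CTR9 averages 77.7 and KMT2A 3.78, and the IAA points of DOT1L and MLLT10 lie apart from their washout and control points.

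The genes whose profile over the 6 libraries lay nearest to DOT1L, by Euclidean distance of centred log2(FPKM + 0.01), were GEMIN4 (0.0289), SLC12A2 (0.0407), KIAA1430 (0.0489), MRPS30 (0.0605) and KLF16 (0.0662). GEMIN4, a component of the SMN complex, averaged 17.7 FPKM after washout, 13.8 FPKM with IAA and 17 FPKM in control. Those nearest to MLLT10 were MLK4 (0.0603), the pseudogene KRT18P11 (0.0675), B4GALNT4 (0.068), KRT18 (0.0689) and PRR12 (0.0729). KRT18, a keratin of simple epithelia, averaged 166 FPKM after washout, 131 FPKM with IAA and 171 FPKM in control, and KRT18P11 is a copy of it that may share its reads. DOT1L and MLLT10 lay 0.173 apart, and MLLT10 ranked 357 among the genes by distance to DOT1L. MLLT6 lay 0.363 from DOT1L, and the distances of the other members from it ran up to 0.591 for MEN1. With 6 libraries and many genes that move with IAA, near profiles are common.

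The related gene lists were then counted with IAA. Among 17 tested members of the MLL family and its COMPASS cofactors other than KMT2A and MEN1, 2 rose, 2 fell and 13 did not pass, with a median log2 change of -0.10. Over all tested genes 13.8% rose and 10.7% fell, so the share of the 17 that changed is near that of all genes. RBBP5, a core subunit shared by the family, had 2.07 and 2.09 FPKM after washout, 2.55 and 2.7 FPKM with IAA, and 2.05 and 1.92 FPKM in control (1.32-fold with IAA, limma adjusted p = 4.34e-05). ASH2L, another core subunit, rose 1.19-fold (limma adjusted p = 0.0184). The methyltransferases KMT2C and KMT2D, which act at enhancers, fell to 0.811 and 0.878 of control (limma adjusted p = 0.00997 and 0.00943). With a pseudocount of 0.1 neither passed (limma adjusted p = 0.0806 and 0.0587). KMT2C lost its call with IAA in 6 of 17 alternatives, KMT2D in 8 of 18 and ASH2L in 6 of 18. PAGR1 (0.766), SETD1B (0.865) and NCOA6 (0.883) did not pass, and SETD1B and NCOA6 passed with FPKM rescaled to TPM (0.0273 and 0.0233). KMT2B had a mean of 15 reads and was not tested. After washout 3 of the 17 rose against IAA, where 11.9% of all tested genes rose, and 1 fell, RBBP5 to 0.791 (limma adjusted p = 0.000308). Those that rose were KMT2D, PAXIP1 and HCFC1, of which PAXIP1 and HCFC1 are named after their values were seen and were not refitted under the alternatives. KMT2D lost this call in 11 of 18 alternatives, 5 of which leave out a control library, an IAA library or washout replicate 1. Without washout replicate 1 its log2 change was 0.07 in place of 0.15 (limma adjusted p = 0.455).

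Factors of H2B ubiquitylation and others linked to the PAF1 complex had 2 of 11 tested members higher and 0 lower with IAA, with a median log2 change of 0.08, where 13.8% of all tested genes rose. They were UBE2A and UBE2B, ubiquitin-conjugating enzymes for H2B, at 1.12-fold and 1.14-fold (limma adjusted p = 0.0227 and 0.0413), and neither passed with FPKM rescaled to TPM (0.0841 and 0.117). TTC37 stood at 0.892 of control, RNF20, a ligase for H2B, at 1.11-fold and WDR61 at 1.08-fold, without passing. After washout UBE2B, WDR61 and RNF20 fell against IAA, 3 of the 11, where 13.6% of all tested genes fell. None of these calls was kept with FPKM rescaled to TPM (0.114 for UBE2B, 0.0882 for WDR61 and 0.116 for RNF20), and each was lost without washout replicate 1 and without at least 1 IAA library, and those of UBE2B and WDR61 also without washout replicate 2 (limma adjusted p up to 0.273).

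The list of ENL, AF9 and the super elongation complex, which competes with DOT1L for the same reader proteins, had 6 of 14 tested members higher and 0 lower with IAA, with a median log2 change of 0.18, where 13.8% of all tested genes rose and 10.7% fell. ELL2, an elongation factor, had 0.598 and 0.625 FPKM after washout, 0.766 and 0.819 FPKM with IAA, and 0.577 and 0.581 FPKM in control (1.37-fold with IAA, limma adjusted p = 7.55e-05). The scaffold AFF1 rose 1.23-fold, ELL 1.31-fold and the cyclin CCNT1 1.16-fold. CCNT2 and AFF4 rose 1.14-fold and 1.11-fold, and neither passed with FPKM rescaled to TPM (0.0893 and 0.116). ELL3 (1.42-fold, on a mean of 22.5 reads), MLLT11 (0.761) and MLLT3 (1.31-fold) did not pass. After washout 6 of the 14 fell against IAA and 0 rose, where 13.6% of all tested genes fell. Of these, AFF4 lost its call in 4 of 18 alternatives and CCNT2 in 1 of 18. CBX8 and EAF1, which also fell, are named after their values were seen and were not refitted under the alternatives. Among 16 other elongation factors, CDK13 (1.16-fold) and SUPT4H1 (1.16-fold) rose with IAA and the H3 methyltransferase SETD2 fell (0.88). Over all tested genes 13.8% rose and 10.7% fell. Neither CDK13 (0.0501) nor SUPT4H1 (0.0783) passed with FPKM rescaled to TPM, and SETD2 did not pass with a pseudocount of 0.1 (0.0505). CCNK (1.11-fold), NELFA (0.903) and SUPT5H (1.09-fold) did not pass with IAA. After washout CCNK and SUPT5H fell against IAA, 2 of the 16, where 13.6% of all tested genes fell. Neither of these calls was kept with FPKM rescaled to TPM (limma adjusted p = 0.0883 and 0.0717).

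HOXA and MEIS genes, classical targets of MLL, menin and DOT1L in leukemia, fell in 6 of 9 tested members with IAA and rose in 0, with a median log2 change of -0.36, where 10.7% of all tested genes fell. HOXA11, a homeobox transcription factor, had 2.87 and 2.86 FPKM after washout, 1.42 and 1.01 FPKM with IAA, and 2.71 and 2.47 FPKM in control (0.47 of control, limma adjusted p = 5.62e-05). It rests on 87 and 63 reads with IAA and 167 and 154 in control. HOXA10 fell to 0.777, HOXA13 to 0.626, HOXA9 to 0.812, HOXA5 to 0.576 and HOXA6 to 0.454 of control. Their limma adjusted p were 0.00792, 0.0112, 0.0307, 0.0441 and 0.0488, in this order. Of 18 alternatives HOXA10 lost its call with IAA in 5, HOXA13 in 6 and HOXA9 in 9. HOXA5 and HOXA6 lost theirs in 9 and 7 of 16. HOXA6 had only 9 and 20 reads with IAA and 22 and 42 in control, and neither HOXA5 nor HOXA6 passed on the TPM scale (0.0698 and 0.057). PBX3 (0.881), HOXA7 (0.897) and MEIS2 (0.941) did not pass. After washout 4 of the 9 rose against IAA, HOXA11 2.35-fold (limma adjusted p = 1.19e-05), where 11.9% of all tested genes rose. HOXA10 and HOXA11 kept this call under all 18 alternatives. HOXA9 lost it in 7, among them without IAA replicate 1 (0.051) and without washout replicate 1, where its log2 change was 0.12 in place of 0.34 (limma adjusted p = 0.409). HOXA13 lost it in 6, among them without IAA replicate 2 (0.0564) and without washout replicate 2 (0.0764). Of 5 CDK inhibitor genes 1 rose with IAA and 0 fell, where 13.8% of all tested genes rose. Some of the 5 are known as menin targets in mouse endocrine cells. The gene that rose was CDKN1A (1.36-fold, limma adjusted p = 2.08e-08). CDKN1B (1.14-fold), CDKN2B (0.914), CDKN2A (0.975) and CDKN2C (0.986) did not pass with IAA. After washout 2 of the 5 fell against IAA and 0 rose, where 13.6% of all tested genes fell. CDKN1A fell to 0.688 (limma adjusted p = 8.5e-10) and kept this call under all 18 alternatives. CDKN1B fell to 0.86 (limma adjusted p = 0.0468) and lost the call in 14 of 18.

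Of the 22 genes of these lists that changed with IAA, RBBP5, ELL2, HOXA11 and CDKN1A passed under every alternative in which they were tested, and the other 18 failed at least 1. Leaving out 1 library, where the lone sample of its group is assumed to vary like the other groups, ended the calls of 16 of them, 12 without control replicate 1, 12 without control replicate 2, 8 without IAA replicate 1 and 12 without IAA replicate 2. Of the 6 HOXA genes that fell, 2 kept the call without control replicate 1 and 3 without control replicate 2, IAA replicate 1 or IAA replicate 2. Of the 6 genes of the super elongation complex list, 4 kept it without control replicate 1 or 2, 5 without IAA replicate 1 and 3 without IAA replicate 2.

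**Figure D4:**
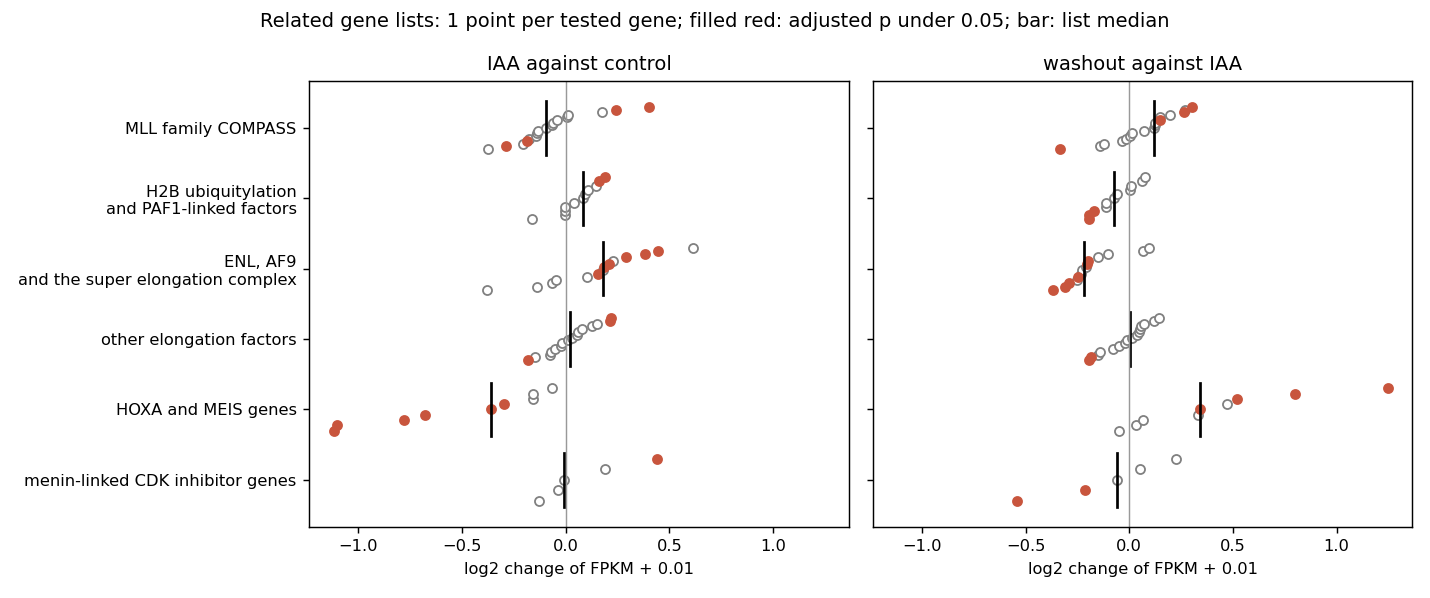
Log2 change of FPKM + 0.01 (x axis) of each tested gene of the 6 related lists, for IAA against control and washout against IAA. Filled points passed, and bars are list medians, at -0.36 for HOXA and MEIS genes and 0.18 for the super elongation complex list with IAA.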

How the data were processed

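The 6 libraries of HCT116 ENL-AID cells hold polyadenylated RNA reverse transcribed with random primers, per the labels' protocols. The authors deposited FPKM, 1 value per gene and library. The authors used HISAT, Bowtie2, HTSeq and edgeR with the hg19 build, per the submitters' processing notes. No source used here gives versions, roles, annotation or strand.

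Low values are whole multiples of a step. With gene spans from GENCODE 29 (94.3% of IDs found) this gave the library totals and, for 99.51% of 21707 genes above 0, whole reads within a tolerance of 0.02 reads. The span gave them directly for 78.2%, and for most others the nearest whole solution was taken. The recovered reads sum to slightly more than these totals (17.3 to 17.61 M reads against 16.44 to 16.77 M reads). Genes with a mean of at least 20 reads (14014) were fitted on log2(FPKM + 0.01) with limma 3.58.1 (R 4.3.3), with a mean per group over all 6 libraries, no replicate block, 3 residual and 18.4 prior degrees of freedom, and a prior variance following the mean log2 reads. Recovery and fit were tested on simulated data. Intervals are 95% and cover the spread between libraries only.

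The members and gene lists were chosen with earlier results of these data known. Named are all 10 members, the genes of each list that changed with IAA and the 3 with the largest change among its others, and the 5 nearest profiles of each member that changed with IAA. Some other list genes are named for their change after washout or their reads, and CDKN2C to complete its list. Count tests on raw counts were not used, since the deposited values are FPKM.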

Additional observations from a re-analysis of the deposited data

How the results depend on the processing

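DOT1L kept its direction and its call in IAA against control and in washout against IAA under all 18 alternatives (limma or voom adjusted p up to 0.0414 and 0.0271). MLLT10 did so under 16 of 17, failing with a pseudocount of 1, and it is not tested where a mean FPKM of 1 is required. Of 24 results of the other 8 members 23 kept their call, the exception being MEN1.

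With a pseudocount of 1, and with a mean FPKM of at least 1 and that pseudocount, the members that changed numbered 1 for IAA against control and 1 for washout against IAA. In IAA against control 3429 genes changed, and the count was 1877 with a pseudocount of 1, 1623 with no filter, 1092 with the mean FPKM filter and 1674 with no variance trend. In washout against IAA it was 3580, against 2001, 1697, 1196 and 1763 under these settings. In washout against control it was 36, against 0 with a pseudocount of 0.1 or 1, with the mean FPKM filter or with no variance trend, 58 with no filter, 83 with at least 100 reads, 58 with TPM, 56 with only the 2 groups compared, and 108 and 112 with voom on the reads without and with median-of-ratios scaling. Leaving out 1 library gave 2182 to 3536, 2505 to 3450 and 6 to 56 genes in the 3 comparisons (2182 and 6 without control replicate 2, 2505 without IAA replicate 1). The last count was also 8 without control replicate 1, 15 without washout replicate 1, and 56 without washout replicate 2 or either IAA library. In these fits a group of 1 library is assumed to vary like the others. Members numbered 2 to 3, 2 to 2 and 0 to 0. Of the genes that changed with IAA 56.5% were higher, and 45.4% with TPM. For washout against IAA these shares were 46.7% and 60.1%. The voom fits were chosen after seeing the data. The planned edgeR and DESeq2 fits were not run, because the deposited values are not counts. The causes of these moves were not tested.

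Over all tested genes, deviations of same-numbered replicates were nearly uncorrelated between groups (-0.011, -0.002 and 0.032). This cannot exclude a shared culture or batch, since spread within single genes can hide it. With a replicate block 3297, 3466 and 21 genes changed in the 3 comparisons, with 2, 2 and 0 members.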
